A study of Homo sapiens with 16 samples.

Results

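Integrins and cadherins are the 2 large families of membrane receptors through which cells hold on to the extracellular matrix and to each other. The members described here are all entries of a deposited expression table whose gene symbol is that of an integrin alpha chain, an integrin beta chain or a numbered cadherin. The rule found 49 entries among the 24107 of the table: 18 integrin alpha chains, 8 integrin beta chains and 23 cadherins. Of these, 17 had a mean of at least 1 FPKM (fragments per kilobase of transcript, scaled to the fragments of the library) over the 16 libraries and were tested among 11260 genes, namely 10 alpha chains, 3 beta chains and 4 cadherins. A further 30 had values below that mean, and CDH9 and CDH22 were listed without values.

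All libraries came from HT-1080, an established human fibrosarcoma line, and measured RNA levels as FPKM in 8 groups of 2. The cells were given the siRNA named siNS, which served as the control, or were depleted of DCAF8 by siRNA (siDCAF8), depleted of DCAF8 and LSH together (siDCAF8+siLSH), or made to overexpress WDR76 (oeWDR76). Each condition was measured untreated and after 10 µM erastin for 24 h, and the group names decided which libraries count as treated. No library with an empty vector accompanied oeWDR76, so that group was compared with siNS, a control of another kind. DCAF8 guides CRL4 ubiquitin ligases to their substrates, LSH is the chromatin remodeler encoded by HELLS, and erastin blocks cystine import and starts ferroptosis, an iron-dependent form of cell death. The comparisons ask how erastin moved these receptors in each condition, how each condition differed from siNS, how cells with both siRNAs differed from siDCAF8, and whether the erastin responses differed.

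An integrin is a pair of 1 alpha and 1 beta chain. The beta chain carries the short cytoplasmic tail that binds talin and kindlin, and the alpha chain largely decides the ligand. Paired with ITGB1, the chains ITGA1, ITGA2 and ITGA10 bind collagen, ITGA3 and ITGA6 bind laminin, and ITGA5 binds the RGD motif of fibronectin. ITGAV pairs with several beta chains, among them ITGB3 and ITGB5, in receptors for vitronectin and other RGD ligands. Classical cadherins such as CDH2 (N-cadherin) bind their like on a neighbouring cell and are tied to actin through catenins, whereas CDH13 (T-cadherin) has no cytoplasmic tail and is held by a lipid anchor. Mesenchymal cells such as fibrosarcoma typically carry N-cadherin in place of CDH1, the E-cadherin of epithelia.

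The sequences below are the promoter windows of 4 members on which the results turn: ITGA2, ITGAV and ITGA10, whose RNA fell most in oeWDR76, and CDH2, whose RNA rose most in siDCAF8. Each runs 5′ to 3′ on the gene's own strand from 250 bases before to 50 bases after the RefSeq transcription start on GRCh38.p14, with CG dinucleotides, the sites of DNA methylation, in capitals. LSH is known for its part in DNA methylation, but methylation was not measured here.
ITGA2 (chr5:52989102-52989401, plus strand): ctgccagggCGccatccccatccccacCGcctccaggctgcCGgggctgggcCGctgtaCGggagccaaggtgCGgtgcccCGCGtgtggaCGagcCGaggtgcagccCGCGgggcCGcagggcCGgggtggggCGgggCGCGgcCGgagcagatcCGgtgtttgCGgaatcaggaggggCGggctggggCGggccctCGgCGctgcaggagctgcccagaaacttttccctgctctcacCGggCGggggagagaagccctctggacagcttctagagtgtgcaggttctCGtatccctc
ITGAV (chr2:186589806-186590105, plus strand): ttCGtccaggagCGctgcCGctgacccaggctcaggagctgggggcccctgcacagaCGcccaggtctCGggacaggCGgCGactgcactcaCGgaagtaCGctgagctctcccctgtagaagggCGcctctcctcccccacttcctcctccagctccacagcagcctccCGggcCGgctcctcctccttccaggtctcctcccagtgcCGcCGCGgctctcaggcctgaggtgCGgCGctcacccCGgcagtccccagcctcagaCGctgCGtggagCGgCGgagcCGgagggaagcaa
ITGA10 (chr1:145910001-145910300, minus strand): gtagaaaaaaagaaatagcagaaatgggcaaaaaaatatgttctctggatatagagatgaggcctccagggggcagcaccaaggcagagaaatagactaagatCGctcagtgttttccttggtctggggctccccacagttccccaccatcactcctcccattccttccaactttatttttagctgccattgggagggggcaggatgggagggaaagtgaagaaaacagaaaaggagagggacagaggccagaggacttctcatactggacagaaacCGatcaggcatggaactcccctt
CDH2 (chr18:28177081-28177380, minus strand): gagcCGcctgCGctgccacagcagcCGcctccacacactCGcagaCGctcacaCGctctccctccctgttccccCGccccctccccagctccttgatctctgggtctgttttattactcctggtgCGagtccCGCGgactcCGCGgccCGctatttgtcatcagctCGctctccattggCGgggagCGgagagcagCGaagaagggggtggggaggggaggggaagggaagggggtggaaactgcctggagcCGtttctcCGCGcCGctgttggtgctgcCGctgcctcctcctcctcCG

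The windows of ITGA2, ITGAV and CDH2 held 27, 23 and 23 CG dinucleotides, and that of ITGA10 held 2. The median over 27305 RefSeq promoters of the same length was 14, and it was 11 over the 29 members with a sequence and 16 over the 11 tested ones. Among the 29, the windows of CDH4, ITGB8 and ITGA4, all below the filter, lay elsewhere relative to the RefSeq start of the gene. The letters GGGCGG, read on both strands and known as the core of the Sp1 box, stood 4 times in the ITGA2 window and 1 time in that of CDH2, and in neither of the other two. They occurred in 44.6% of all promoters and in 7 of the 11 tested members. GGAATG, the core bound by TEAD factors, also searched on both strands, stood in the ITGA10 window and in 14.0% of all promoters. A match is a stretch of letters and no evidence of binding. The 3 genes with the largest falls in 1 comparison thus had windows with CG counts from 2 to 27.

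The 2 libraries of a group had a Pearson's r of 0.996 to 0.997 across genes, and the files give no counts, so the depth is unknown. The labels do not say whether a group's libraries were separate cultures, so p-values measure only the spread between these libraries. DCAF8 RNA fell from 39.7 ± 1.08 FPKM (SD, n = 2) in siNS to 12 ± 0.304 in siDCAF8 and 15.8 ± 2.23 in siDCAF8+siLSH. WDR76 rose from 3.21 ± 0.445 to 267 ± 0.445 FPKM in oeWDR76. HELLS stood at 4.01 ± 0.0495 FPKM in siNS, 7.14 ± 0.438 in siDCAF8 and 4.06 ± 0.0141 in siDCAF8+siLSH, so the last group was below siDCAF8 but not below siNS. With erastin HELLS stood at 2.24 ± 0.170 in siDCAF8+siLSH and 3.49 ± 0.163 in siNS. Levels in the oeWDR76 libraries rose with the GC content of the gene, by 0.19 to 0.23 log2 per 10% GC relative to the mean of all libraries, against -0.16 to 0.03 in the other 12 libraries. Of 12 mesenchymal markers 10 passed the filter, with a summed 2641 to 4405 FPKM and VIM at 1273 to 2067. Of 12 epithelial markers 3 passed it (KRT7, CLDN4 and OCLN), with a sum of 3.97 to 11.3 FPKM, while EPCAM reached at most 0.20.

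The 17 tested members had mean levels from 2.60 to 365 FPKM, led by ITGB1 at 365 and ITGA3 at 335. ITGA5 (121), ITGB5 (95.6), ITGA2 (76.5), ITGA6 (42.1), ITGAV (35.7) and ITGA10 (25.9) followed among the integrins. CDH13 (31), CDH2 (25) and CDH24 (13.1) led the cadherins. ITGB3 averaged 10.3 FPKM, ITGA1 5.01, ITGAL 4.23, ITGAX 2.86, CDH12 2.62 and ITGAE 2.60. The filter fell in a gap, with ITGAE as the lowest member inside it and CDH4, at 0.974 FPKM, just outside. In these bulk libraries a lower level in every cell and a smaller share of cells with the transcript cannot be told apart.

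**Figure D1:**
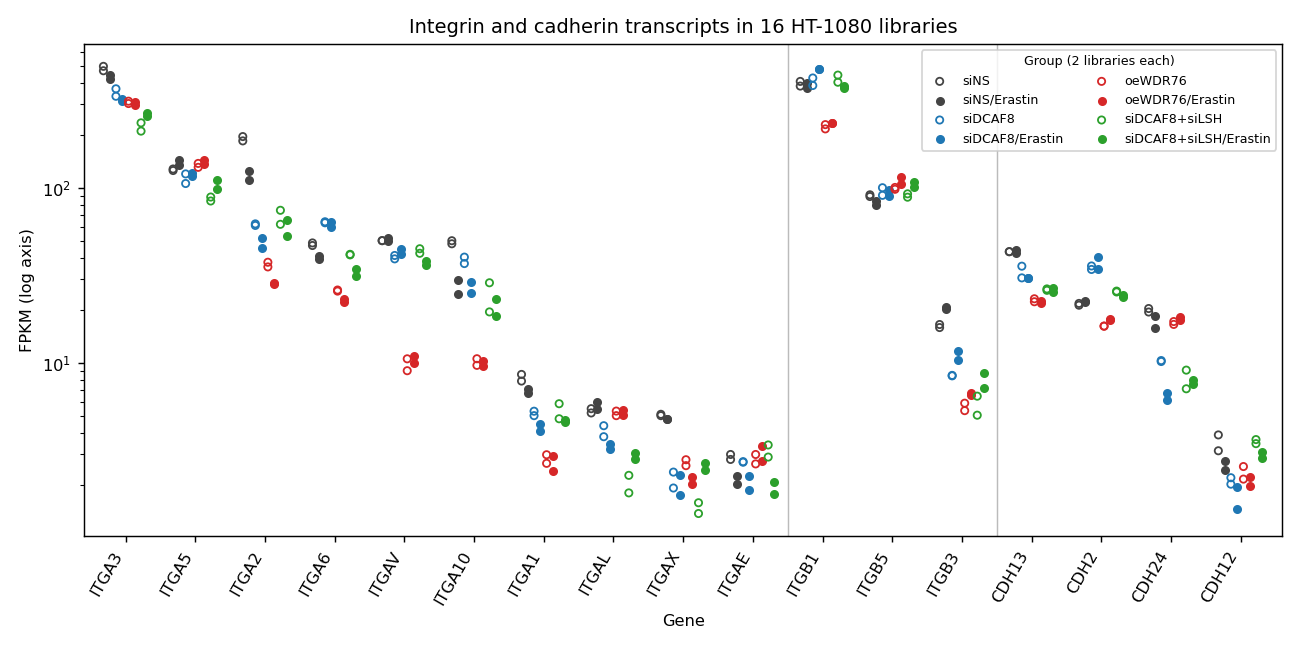
FPKM (log axis) of the 17 tested members in all 16 libraries. Each point is 1 library, open when untreated and filled after erastin, and colours mark the 4 conditions. ITGA2, ITGAV and ITGA10 show the lowest points in oeWDR76, and CDH2 the highest in siDCAF8.

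Differences were tested with limma on log2(FPKM + 1), and a member is called where its p, adjusted by the Benjamini-Hochberg method over all 11260 genes, was below 0.05. Folds are on the FPKM + 1 scale, which understates the changes of the lowest members, and the comparisons with siNS share the siNS libraries. No called direction of any member turned under any alternative scaling, filter or pseudocount or with any 1 library left out.

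Untreated siDCAF8 cells had less RNA for most of these receptors, but more CDH2 and ITGA6. Against siNS, 2 of 17 members rose and 12 fell (11.8% and 70.6%), where 31% and 29.9% of all tested genes rose and fell, and the median difference of the members was -0.34 on the log2 scale against 0.01 over all genes. ITGA2 fell 3.06-fold (SE 0.10 log2, adjusted p = 8.66e-10), the largest change of a member, followed by ITGAX, 1.92-fold, and CDH24, 1.87-fold. Among erastin-treated cells 4 members were higher and 11 lower in siDCAF8 than in siNS (23.5% and 64.7%), beside 34.8% and 30% of all genes. ITGB1 and ITGB5 joined CDH2 and ITGA6 on the higher side there, with log2 differences of 0.31 (adjusted p = 0.000265) and 0.18 (0.0212). The ITGB5 call was lost without siNS/Erastin replicate 2 (adjusted p = 0.145), without siDCAF8/Erastin replicate 2 (0.179) and with median-ratio scaling (0.0543).

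The largest falls of these receptors were in oeWDR76. Untreated, no member rose and 13 of 17 (76.5%) fell by limma's test, beside 41.6% of all genes rising and 32% falling. At limma's unadjusted p below 0.05 the counts were 1 (ITGB5) and 13, beside 8501 of all 11260 genes in either direction. The members' median difference was -0.71 and that of all genes 0.07. ITGA2 fell 5.12-fold (SE 0.10 log2, adjusted p = 1.88e-12), ITGAV 4.73-fold (SE 0.07 log2, adjusted p = 5.95e-14) and ITGA10 4.49-fold (SE 0.13 log2, adjusted p = 3.65e-10), and 5 members passed 2-fold. With erastin 2 were higher (ITGAE and ITGB5) and 11 lower (11.8% and 64.7%), beside 45.2% and 31% of all genes. The ITGAE call was lost without oeWDR76/Erastin replicate 2 (adjusted p = 0.0735). Median-ratio scaling moved the median of all genes in that comparison by -0.10 and quantile normalization by -0.12. The members' count then became 2 higher and 13 lower under both. After a correction for GC content and length, 13 members were lower in untreated oeWDR76, where no call was lost with it, and 1 higher and 13 lower with erastin. Of all called genes in the erastin comparison, 59.3% were higher before that correction and 48.7% after it. Without a vector control, effects of WDR76 and of the overexpression procedure cannot be told apart.

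Untreated cells with both siRNAs had less ITGAL, ITGA10, ITGA3, ITGA6 and CDH2 than siDCAF8 cells, and more CDH12. Of 17 members 1 rose and 10 fell in untreated siDCAF8+siLSH against siDCAF8 (5.88% and 58.8%), beside 26.4% and 21.7% of all genes. ITGAX, ITGA5, ITGB3, CDH13 and CDH24 were the other called members that fell. With erastin 4 were higher (CDH24, ITGA2, CDH12 and ITGB5) and 9 lower (23.5% and 52.9%), beside 30.4% and 19.3%. Median-ratio scaling changed the latter split to 1 higher and 9 lower, and that of all called genes from 61.1% to 49.6% higher (50.8% with quantile normalization and with the GC and length correction). Without siDCAF8+siLSH/Erastin replicate 1 it was 2 higher and 6 lower. DCAF8 itself was less reduced in siDCAF8+siLSH, so this comparison does not isolate LSH. Against siNS, siDCAF8+siLSH had 1 member higher and 12 lower untreated (5.88% and 70.6%), beside 35.9% and 30.9% of all genes, and 7 passed 2-fold. The same counts, 1 and 12, were found with erastin, beside 39.3% and 26.7% of all genes, where median-ratio scaling took the higher share of all called genes from 59.5% to 49.1%.

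**Figure D2:**
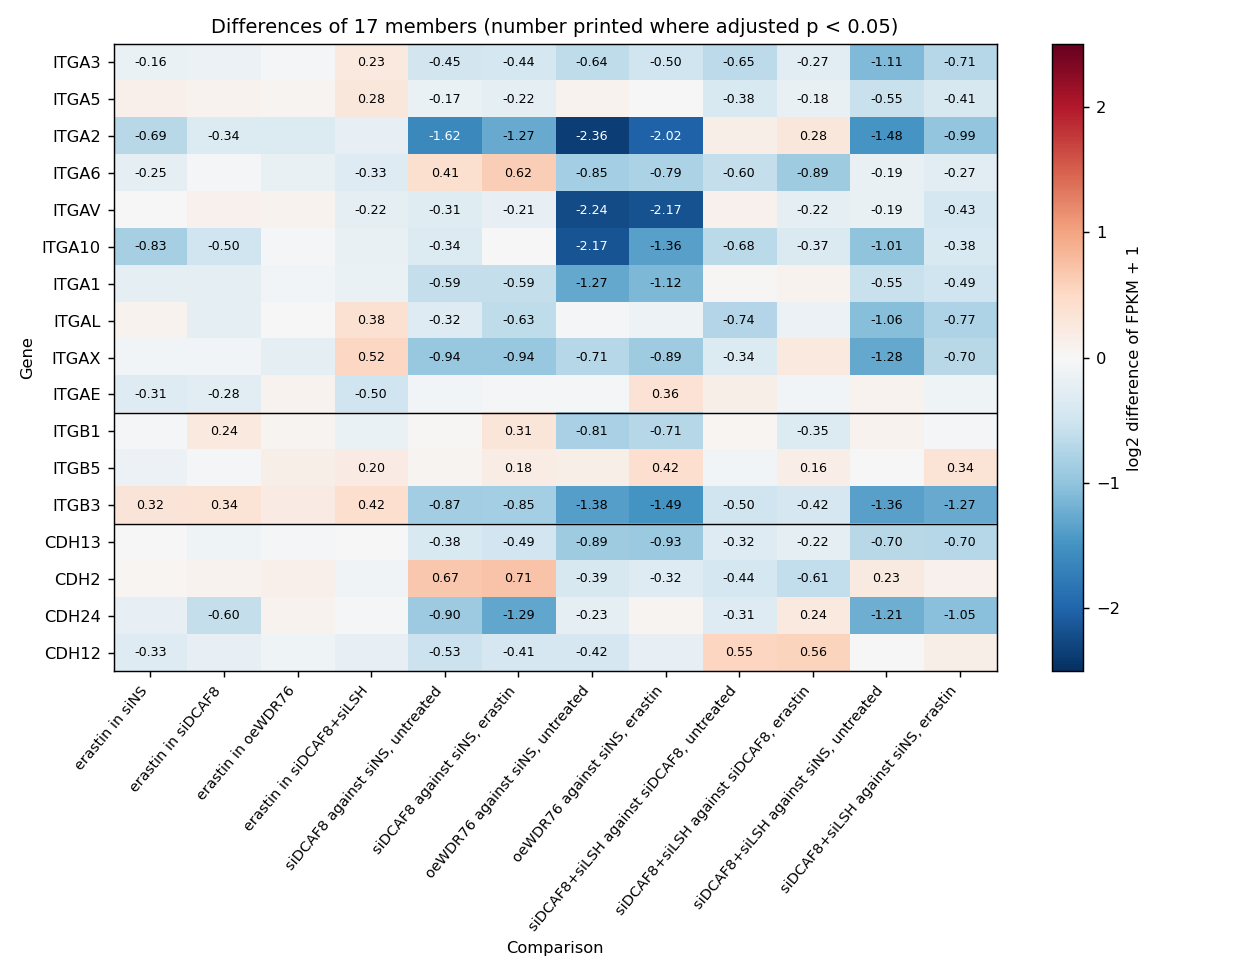
Log2 differences of FPKM + 1 for the 17 tested members (vertical) in the 12 comparisons of 2 groups (horizontal), red for higher and blue for lower. Numbers stand where the adjusted p was below 0.05. The deepest values are ITGA2, ITGAV and ITGA10 in oeWDR76 against siNS, and CDH2 and ITGA6 are higher in siDCAF8.

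No member passed 2-fold in any of the 4 erastin comparisons. In siNS cells it lowered ITGA10 1.77-fold (SE 0.13 log2, adjusted p = 0.00018) and ITGA2 1.61-fold (SE 0.10 log2, adjusted p = 4.06e-05), and raised ITGB3 1.25-fold (SE 0.10 log2, adjusted p = 0.0144). Of 17 members 1 rose and 6 fell (5.88% and 35.3%), beside 15.1% and 22.4% of all genes. The higher share of all called genes there moved from 40.4% to 51.8% with quantile normalization and to 53.6% with the GC and length correction, and the members' counts were then 1 and 4, and 2 and 4. ITGA6, ITGA3, ITGAE and CDH12 were the other called members. Without siNS replicate 1 or siNS/Erastin replicate 2 the counts were 1 and 3, and without siNS replicate 2 they were 0 and 4. The calls of ITGA10, ITGA2 and ITGA6 were lost in none of these omissions, whereas ITGA3 lost its call without any 1 of 12 libraries (all but the untreated siDCAF8 and siDCAF8+siLSH ones, adjusted p 0.0552 to 0.275). ITGB3 lost its call without siNS replicate 2 (0.0882) or siNS/Erastin replicate 1 (0.076). In siDCAF8 cells 2 members rose and 4 fell with erastin (11.8% and 23.5%), beside 18.3% and 22.5% of all genes, a share close to the background. CDH24 fell 1.52-fold (SE 0.09 log2, adjusted p = 9.78e-05) there, and ITGB1 rose 1.18-fold (SE 0.06 log2, adjusted p = 0.0048). ITGA10, ITGA2 and ITGAE were the other called members that fell in siDCAF8, and ITGB3 the other that rose. Without siDCAF8 replicate 1 only 1 member rose and 1 fell, and the ITGB1 call was lost (adjusted p = 0.0816).

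In siDCAF8+siLSH cells erastin raised 6 members and lowered 3 (35.3% and 17.6%), beside 10.6% and 9.54% of all genes. ITGAX rose 1.44-fold (SE 0.10 log2, adjusted p = 0.00144), ITGB3 1.34-fold (SE 0.10 log2, adjusted p = 0.00563) and ITGAL 1.3-fold (SE 0.09 log2, adjusted p = 0.00714). ITGAE fell 1.41-fold (SE 0.10 log2, adjusted p = 0.00265) and ITGA6 1.26-fold (SE 0.06 log2, adjusted p = 0.000764). ITGA5, ITGA3 and ITGB5 were the other called members that rose, and ITGAV the other that fell. Without siDCAF8+siLSH replicate 2 the counts were 1 and 3 and without siDCAF8+siLSH/Erastin replicate 1 they were 3 and 2. Of the values just given, ITGAL lost its call in both omissions (adjusted p = 0.104 and 0.0627). ITGB3 lost it without the first of them (0.102) and without siDCAF8+siLSH/Erastin replicate 2 (0.0934). In oeWDR76 cells limma called 0 members, beside 0.471% and 0.977% of all genes higher and lower. At an unadjusted p below 0.05, 5 members differed there, 2 higher and 3 lower, and 1527 of all genes.

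**Figure D3:**
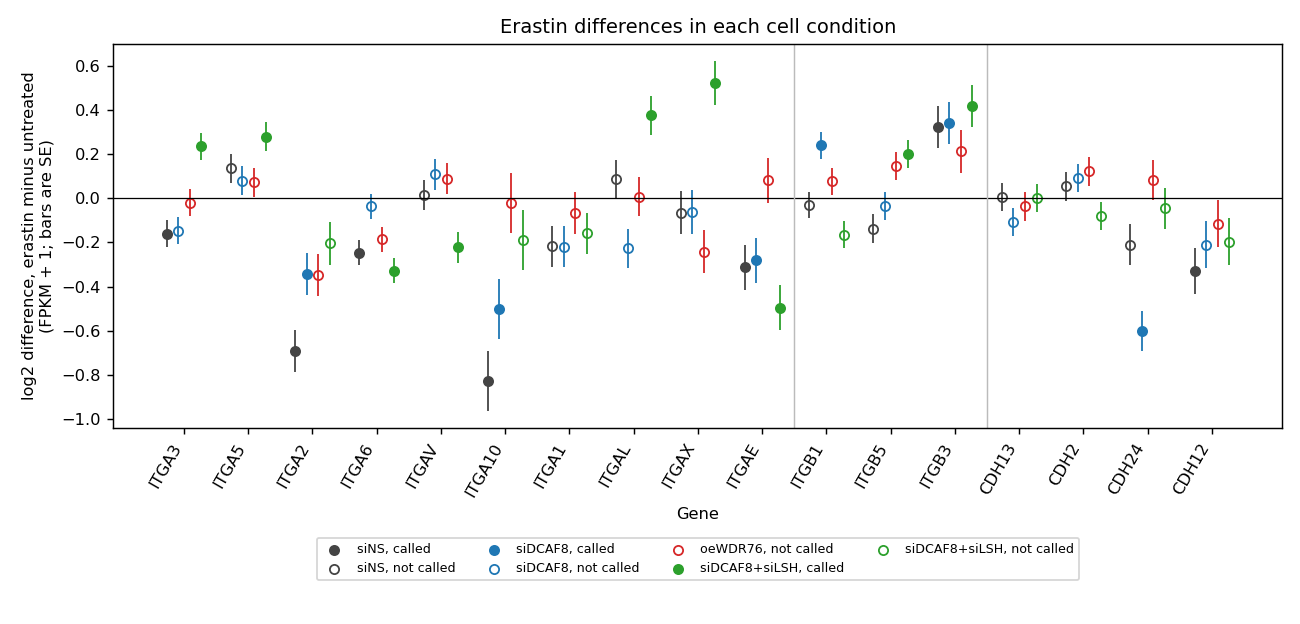
Log2 difference of FPKM + 1 between erastin-treated and untreated libraries for each tested member, with bars for the SE. Filled points have an adjusted p below 0.05. ITGA2 and ITGA10 lie lowest in siNS, ITGB3 lies above 0 in all 4 conditions, and no oeWDR76 point is filled.

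The differences between erastin responses were tested directly. The response in siDCAF8 was higher than in siNS for 1 member, ITGB1, and lower for 1, CDH24, beside 11% and 9.84% of all genes. ITGB1 differed by 0.27 (SE 0.09, adjusted p = 0.0333) and CDH24 by -0.39 (SE 0.13, adjusted p = 0.0407). The ITGB1 call was lost without any 1 of 5 libraries (adjusted p 0.0666 to 0.150), namely siNS replicate 1, siNS/Erastin replicate 1, siDCAF8 replicate 1 and both siDCAF8/Erastin replicates. The CDH24 call was lost without any 1 of 10 (0.0504 to 0.192), namely the siNS, siDCAF8, oeWDR76 and oeWDR76/Erastin libraries and replicate 1 of siNS/Erastin and of siDCAF8/Erastin. Called members then numbered 0 to 2, and 3 without either siDCAF8+siLSH/Erastin library. In oeWDR76 it was higher than in siNS for 2 members and lower for 0, beside 9.04% and 5.11% of all genes. At an unadjusted p below 0.05 these were 5 and 0 of 17, beside 3267 of all 11260 genes in either direction, a share close to the background. ITGA10, which fell by 0.83 in siNS and stood at -0.02 in oeWDR76, differed by 0.81 (SE 0.19, adjusted p = 0.0111). ITGB5 differed by 0.28 (SE 0.09, adjusted p = 0.0469), a call lost without any 1 of the siNS, siNS/Erastin and oeWDR76 libraries or oeWDR76/Erastin replicate 1 (adjusted p 0.0598 to 0.191) and with median-ratio scaling (0.0968). In siDCAF8+siLSH the response was higher than in siDCAF8 for 4 members and lower for 3 (23.5% and 17.6%), beside 14.2% and 9.24% of all genes. ITGB1, which rose in siDCAF8, differed by -0.40 (SE 0.09, adjusted p = 0.00599), and ITGAL by 0.60 (SE 0.13, adjusted p = 0.00594). After the correction for GC content and length none of these 7 was called by limma, with adjusted p from 0.0550 to 0.462, and 112 of all genes were higher and 138 lower in place of 1602 and 1040. Without siDCAF8 replicate 1 there were 4 called members in place of 7. The higher share of all called genes moved from 60.6% to 50% with median-ratio scaling, and in the oeWDR76 minus siNS comparison from 63.9% to 50.5%.

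ITGA2 encodes the alpha chain of the collagen receptor that also serves platelets, and its gene lies on chromosome 5 at 52989326 to 53094779 (GRCh38, per the deposited table). Its untreated libraries stood at 196 and 186 FPKM in siNS, 62.3 and 61 in siDCAF8, 74.5 and 61.9 in siDCAF8+siLSH and 37.6 and 35.4 in oeWDR76. With erastin they stood at 111 and 125 FPKM in siNS/Erastin, 51.7 and 45.3 in siDCAF8/Erastin, 52.9 and 65.4 in siDCAF8+siLSH/Erastin and 28.4 and 28.4 in oeWDR76/Erastin. Every siNS library lay above every other library of the same treatment, and the oeWDR76 libraries were the lowest in both treatments. The fall in siDCAF8 with erastin was 2.41-fold (SE 0.10 log2, adjusted p = 8.35e-09). In siDCAF8+siLSH ITGA2 was 2.78-fold below siNS untreated and 1.99-fold with erastin. It differed from siDCAF8 by 0.14 (SE 0.10, adjusted p = 0.248) untreated and by 0.28 (SE 0.10, adjusted p = 0.0242) with erastin. The latter call was lost without siDCAF8/Erastin replicate 2 (adjusted p = 0.215) or siDCAF8+siLSH/Erastin replicate 2 (0.34), and with median-ratio scaling (0.0664). Erastin lowered ITGA2 1.27-fold in siDCAF8 (adjusted p = 0.00921), a call that was lost without siDCAF8 replicate 1 (0.0556) or siDCAF8/Erastin replicate 2 (0.105).

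ITGA10 encodes a collagen-binding chain best known from cartilage, on chromosome 1 at 145891208 to 145910189. Without erastin its values were 49.9 and 48 FPKM in siNS, 40.2 and 37 in siDCAF8, 28.7 and 19.6 in siDCAF8+siLSH and 10.6 and 9.69 in oeWDR76. After erastin they were 29.9 and 24.7 FPKM in siNS/Erastin, 25.1 and 28.9 in siDCAF8/Erastin, 18.5 and 23.1 in siDCAF8+siLSH/Erastin and 9.67 and 10.3 in oeWDR76/Erastin. The siNS and siDCAF8 libraries did not overlap untreated, but did after erastin, where the difference was -0.01 (SE 0.13, adjusted p = 0.953). The untreated difference, -0.34 (SE 0.13, adjusted p = 0.04), lost its call without any 1 of the 4 untreated siNS and siDCAF8 libraries (adjusted p 0.0592 to 0.182). The 2 untreated siDCAF8+siLSH libraries lay far apart. ITGA10 was 2.02-fold lower in untreated siDCAF8+siLSH than in siNS (adjusted p = 4.8e-06) and 1.6-fold lower than in siDCAF8 (adjusted p = 0.000626). In oeWDR76 with erastin it was 2.57-fold below siNS (adjusted p = 8.7e-08). Erastin lowered ITGA10 in siDCAF8 as well as in siNS, from a mean of 38.6 to 27.0 FPKM in siDCAF8. That siDCAF8 call was lost without siDCAF8 replicate 1 or siDCAF8/Erastin replicate 1. The difference between the siDCAF8 and siNS responses was not called for ITGA10, nor was its erastin difference in siDCAF8+siLSH.

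ITGA1, the third collagen-binding chain, shares its locus on chromosome 5 with PELO, and the sources do not state whether reads were assigned by strand, so its level is uncertain. Its untreated libraries read 7.88 and 8.6 FPKM in siNS, 5 and 5.3 in siDCAF8, 5.85 and 4.8 in siDCAF8+siLSH and 2.99 and 2.67 in oeWDR76. In erastin they read 6.74 and 7.14 FPKM in siNS/Erastin, 4.08 and 4.49 in siDCAF8/Erastin, 4.58 and 4.72 in siDCAF8+siLSH/Erastin and 2.93 and 2.4 in oeWDR76/Erastin. As with ITGA2, siNS was highest and oeWDR76 lowest in both treatments, and the 2 DCAF8-depleted conditions lay between them. ITGA1 was 1.5-fold lower in siDCAF8 and 2.41-fold lower in oeWDR76 than in siNS, both untreated (adjusted p = 4.27e-05 and 2.71e-09). The log2 difference with erastin was -0.22 in siNS and -0.22 in siDCAF8, neither called (adjusted p = 0.0768 and 0.0705).

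Summed per library, ITGA1, ITGA2, ITGA10 and ITGA11 made up 24.8% to 26.5% of all integrin alpha FPKM in siNS and 15.2% to 15.7% in siDCAF8. In oeWDR76 the share was 9.01% to 9.29%, and in siDCAF8+siLSH 18.2% to 20.8%. With erastin it was 17.7% to 19.2% in siNS and 12.3% to 13% in siDCAF8. The ranges of untreated groups did not overlap, and these shares are a description without a test. The sum of all alpha chains fell from between 961 and 978 FPKM in siNS to between 530 and 551 in oeWDR76 and between 476 and 526 in siDCAF8+siLSH.

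**Figure D4:**
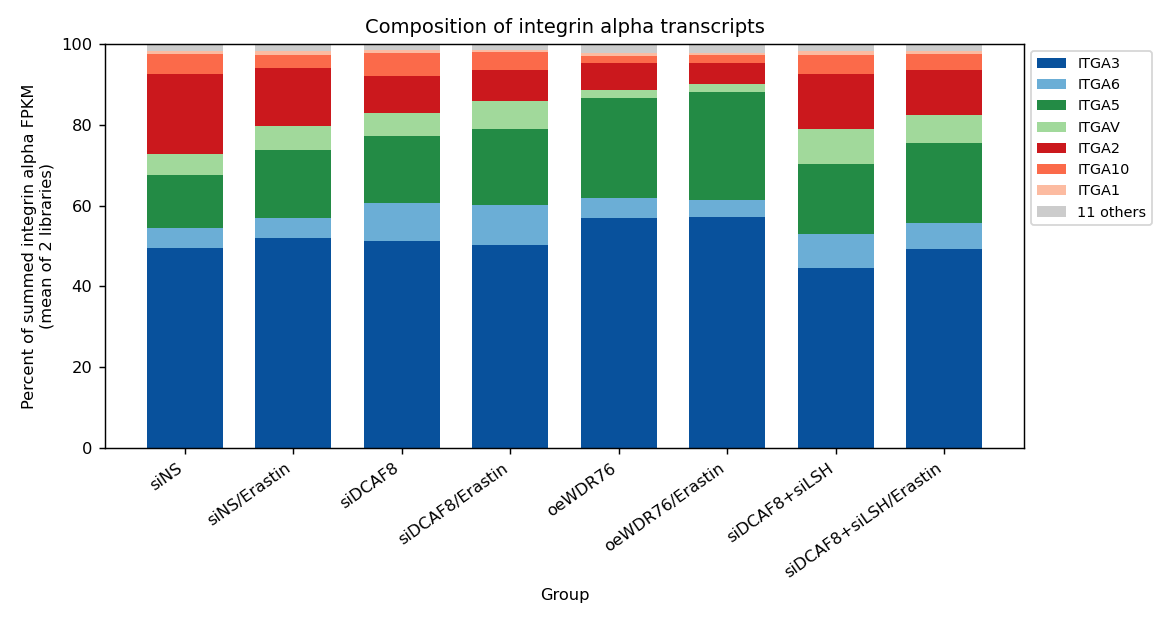
Share (percent) of each integrin alpha chain in the summed alpha FPKM of the 8 groups, as means of 2 libraries, stacked to 100. Red shades are collagen-binding, blue shades laminin-binding and green shades RGD-binding chains. The red part is widest in siNS and narrowest in oeWDR76.

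ITGA3, the alpha chain of a laminin receptor and the most abundant alpha chain here, lies on chromosome 17 at 50055968 to 50090485. Untreated libraries had 467 and 495 FPKM in siNS, 368 and 334 in siDCAF8, 235 and 211 in siDCAF8+siLSH and 313 and 303 in oeWDR76. Erastin-treated libraries had 442 and 418 FPKM in siNS/Erastin, 312 and 321 in siDCAF8/Erastin, 258 and 267 in siDCAF8+siLSH/Erastin and 311 and 297 in oeWDR76/Erastin. In both treatments siNS was highest and siDCAF8+siLSH lowest, with no overlap between siNS and any other condition. ITGA3 was 1.37-fold lower in siDCAF8 and 1.56-fold lower in oeWDR76 than in siNS (adjusted p = 7.68e-06 and 6.67e-08). In siDCAF8+siLSH it was lower than in siDCAF8 by 0.65 log2 untreated and 0.27 with erastin (adjusted p = 6.33e-07 and 0.00167). Erastin raised it in siDCAF8+siLSH by 0.23 on the log2 scale (SE 0.06, adjusted p = 0.0122), a call lost without siDCAF8+siLSH replicate 2 (adjusted p = 0.146) or siDCAF8+siLSH/Erastin replicate 2 (0.0937).

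ITGA6, a laminin-binding chain that pairs with ITGB1 or with ITGB4 of hemidesmosomes, was the alpha chain that rose in siDCAF8. Its untreated values were 48.5 and 46.9 FPKM in siNS, 63.2 and 64 in siDCAF8, 41.7 and 41.4 in siDCAF8+siLSH and 25.7 and 26.1 in oeWDR76. Its erastin values were 39.2 and 40.9 FPKM in siNS/Erastin, 60.2 and 63.9 in siDCAF8/Erastin, 34.6 and 31.4 in siDCAF8+siLSH/Erastin and 23.1 and 22.2 in oeWDR76/Erastin. The siDCAF8 libraries were the highest and the oeWDR76 libraries the lowest, without overlap. ITGA6 rose 1.33-fold (SE 0.06 log2, adjusted p = 1.16e-05) in siDCAF8 untreated and 1.54-fold (SE 0.06 log2, adjusted p = 9.12e-08) with erastin. Against siDCAF8, it was 1.52-fold lower in siDCAF8+siLSH untreated and 1.86-fold lower with erastin (adjusted p = 7.32e-07 and 9.64e-09). ITGA6 in oeWDR76 was 1.81-fold below siNS (adjusted p = 9.12e-10). ITGB4 stayed between 0.17 and 0.44 FPKM in all libraries. As a share of alpha FPKM, ITGA6 held 4.79% to 5.04% in siNS and 8.90% to 9.73% in siDCAF8.

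ITGA5, the fibronectin receptor chain, was called in neither comparison of oeWDR76 with siNS. Its values were 126 and 128 FPKM in siNS, 120.21 and 106 in siDCAF8, 88.7 and 84.2 in siDCAF8+siLSH and 138 and 131 in oeWDR76 without erastin. They were 144 and 136 FPKM in siNS/Erastin, 117 and 122 in siDCAF8/Erastin, 111 and 99.2 in siDCAF8+siLSH/Erastin and 145 and 138 in oeWDR76/Erastin with it. The siDCAF8+siLSH libraries were the lowest of each treatment, 1.46-fold untreated and 1.32-fold with erastin below siNS (adjusted p = 1.79e-06 and 5.09e-05). In oeWDR76 the difference from siNS was 0.08 (SE 0.07, adjusted p = 0.275) untreated and 0.02 (SE 0.07, adjusted p = 0.804) with erastin. In untreated siDCAF8 it was -0.17 (SE 0.07, adjusted p = 0.0381). This last call did not hold without siNS replicate 1 (adjusted p = 0.0834), siNS replicate 2 (0.142) or siDCAF8 replicate 2 (0.395), and with quantile normalization (0.0589).

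ITGAV, the vitronectin receptor chain on chromosome 2 at 186590063 to 186680902, had its largest falls in oeWDR76. Its untreated libraries gave 49.95 and 49.98 FPKM in siNS, 39.3 and 41.1 in siDCAF8, 42.3 and 44.9 in siDCAF8+siLSH and 10.6 and 9.03 in oeWDR76. With erastin they gave 49.5 and 51.5 FPKM in siNS/Erastin, 44.8 and 42.1 in siDCAF8/Erastin, 36.2 and 38.3 in siDCAF8+siLSH/Erastin and 10.9 and 10.02 in oeWDR76/Erastin. The oeWDR76 libraries lay far below the other 12, whose values ran from 36.2 to 51.5 FPKM. The fall in oeWDR76 was 4.5-fold (SE 0.07 log2, adjusted p = 1.03e-13) with erastin. In siDCAF8 the fall from siNS was 0.31 log2 untreated (adjusted p = 0.00109). With erastin it was 0.21 (0.0126), a call lost without siNS/Erastin replicate 2 (0.0768) or siDCAF8/Erastin replicate 2 (0.0968). The fall in oeWDR76 was tested against the fall in siDCAF8 in no comparison here.

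ITGAL and ITGAX, on chromosome 16, encode alpha chains of leukocyte integrins that pair with ITGB2, and ITGAE encodes the chain that pairs with ITGB7 and binds E-cadherin. ITGAL stood at 5.18 and 5.48 FPKM in siNS, 4.38 and 3.79 in siDCAF8, 2.28 and 1.81 in siDCAF8+siLSH and 5.31 and 5 in oeWDR76, and with erastin at 5.48 and 5.96 FPKM in siNS/Erastin, 3.22 and 3.46 in siDCAF8/Erastin, 3.06 and 2.82 in siDCAF8+siLSH/Erastin and 5.02 and 5.36 in oeWDR76/Erastin. ITGAX stood at 5 and 5.09 FPKM in siNS, 2.38 and 1.93 in siDCAF8, 1.59 and 1.38 in siDCAF8+siLSH and 2.8 and 2.59 in oeWDR76, and with erastin at 4.77 and 4.79 FPKM in siNS/Erastin, 1.75 and 2.3 in siDCAF8/Erastin, 2.46 and 2.67 in siDCAF8+siLSH/Erastin and 2.22 and 2.03 in oeWDR76/Erastin. Both were lowest in untreated siDCAF8+siLSH, and ITGAX was highest in siNS under both treatments. ITGAX fell 1.92-fold (SE 0.10 log2, adjusted p = 4.92e-07) in siDCAF8, 1.64-fold in oeWDR76 and 2.43-fold in siDCAF8+siLSH against siNS (adjusted p = 5.62e-06 and 9.67e-09 for the last pair). ITGAL fell 2.08-fold in siDCAF8+siLSH (adjusted p = 2.81e-08) and differed by -0.04 (SE 0.09, adjusted p = 0.696) in oeWDR76. ITGB2, their beta partner, stayed at 0.20 to 0.94 FPKM, and ITGB7 at 0.18 to 0.45. Of 10 blood markers 4 passed the filter (CD68, LYZ, PTPRC and CD3E), with CD68, a lysosomal protein also made outside blood, at 39.1 to 161 FPKM and the other three at 0.57 to 5.2. CD79A reached at most 0.15 FPKM. The summed blood markers were 111 to 121 FPKM in siNS, 76.6 to 76.8 in siDCAF8, 162.5 to 170.1 in oeWDR76 and 45.97 to 50.1 in siDCAF8+siLSH, and their part in the ITGAL and ITGAX results was not tested. ITGAX has close paralogs beside it (ITGAM and ITGAD), so reads could be shared.

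ITGAE lies across HASPIN and P2RX5, genes whose reads may be counted with it without strand. It read 3 and 2.81 FPKM in siNS, 2.71 and 2.73 in siDCAF8, 2.9 and 3.4 in siDCAF8+siLSH and 2.65 and 3 in oeWDR76. After erastin it read 2.25 and 2.04 FPKM in siNS/Erastin, 1.88 and 2.26 in siDCAF8/Erastin, 2.09 and 1.79 in siDCAF8+siLSH/Erastin and 2.74 and 3.37 in oeWDR76/Erastin. Its level was lower with erastin in siNS, siDCAF8 and siDCAF8+siLSH without overlap, but not in oeWDR76, where the groups overlapped. The log2 falls were 0.31, 0.28 and 0.50 (adjusted p = 0.0236, 0.0372 and 0.00265), and a difference of 0.08 was not called in oeWDR76 (0.779). Tested directly, the ITGAE response in oeWDR76 was not called as different from that in siNS. The siNS call did not hold without siNS replicate 1 (0.12), siNS replicate 2 (0.0598) or siNS/Erastin replicate 2 (0.131), and with the GC and length correction (0.0674). The siDCAF8 call was lost without siDCAF8 replicate 1 (0.116), siDCAF8 replicate 2 (0.108) or siDCAF8/Erastin replicate 1 (0.251), and with that correction (0.301).

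Among the beta chains, ITGB1, the partner of most alpha chains, was lower in oeWDR76 and, with erastin, higher in siDCAF8. It lies on chromosome 10 at 32900318 to 32958365. Its untreated values were 406 and 382 FPKM in siNS, 385 and 424 in siDCAF8, 402 and 441 in siDCAF8+siLSH and 229.87 and 217 in oeWDR76. Its values after erastin were 371 and 399.68 FPKM in siNS/Erastin, 475 and 479.75 in siDCAF8/Erastin, 369.91 and 381 in siDCAF8+siLSH/Erastin and 236 and 236 in oeWDR76/Erastin. The 4 oeWDR76 libraries lay below all others, and the siDCAF8/Erastin pair lay above all others. ITGB1 fell 1.76-fold (SE 0.06 log2, adjusted p = 3.01e-09) in oeWDR76 untreated and 1.63-fold (SE 0.06 log2, adjusted p = 1.4e-08) with erastin. In untreated siDCAF8 and siDCAF8+siLSH it differed from siNS by 0.04 (SE 0.06, adjusted p = 0.608) and by 0.10 (SE 0.06, adjusted p = 0.169), neither called. With erastin ITGB1 was lower in siDCAF8+siLSH than in siDCAF8 by 0.35 on the log2 scale (SE 0.06, adjusted p = 0.00018).

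ITGB3, the beta chain of the vitronectin receptor and of the platelet fibrinogen receptor, was lower than siNS in every other condition. It was called higher with erastin in 3 of 4 conditions. It had 16.6 and 15.9 FPKM in siNS, 8.49 and 8.44 in siDCAF8, 6.46 and 5.03 in siDCAF8+siLSH and 5.89 and 5.34 in oeWDR76 untreated. With erastin it had 20.9 and 20.3 FPKM in siNS/Erastin, 10.4 and 11.6 in siDCAF8/Erastin, 7.22 and 8.78 in siDCAF8+siLSH/Erastin and 6.56 and 6.76 in oeWDR76/Erastin. The siNS libraries lay above all others of their treatment, and each erastin pair lay above its untreated pair. No tested difference between erastin responses was called for ITGB3. ITGB3 fell 1.82-fold (SE 0.10 log2, adjusted p = 8.99e-07) in siDCAF8, 2.57-fold in siDCAF8+siLSH and 2.61-fold in oeWDR76 (adjusted p = 3.51e-09 and 1.34e-09 for the last pair). Erastin raised it 1.25-fold in siNS, 1.27-fold in siDCAF8 (adjusted p = 0.00946) and 1.34-fold in siDCAF8+siLSH, while 1.16-fold in oeWDR76 was not called (adjusted p = 0.34). The siDCAF8+siLSH call was lost without siDCAF8+siLSH replicate 2 or siDCAF8+siLSH/Erastin replicate 2. Without siNS replicate 2 the siNS call was lost (0.0882), as it was without siNS/Erastin replicate 1 (0.076). Without siDCAF8/Erastin replicate 2 the siDCAF8 call was lost (0.0919).

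ITGB5, the other vitronectin receptor beta chain, was called in none of the comparisons of untreated groups. It stood at 89.3 and 91.3 FPKM in siNS, 100.23 and 90.7 in siDCAF8, 92.5 and 88.5 in siDCAF8+siLSH and 101 and 98.2 in oeWDR76. Under erastin it stood at 84.5 and 79.6 FPKM in siNS/Erastin, 89.5 and 96.7 in siDCAF8/Erastin, 108 and 101 in siDCAF8+siLSH/Erastin and 116 and 105 in oeWDR76/Erastin. The siNS/Erastin pair was lowest, and oeWDR76/Erastin and siDCAF8+siLSH/Erastin were highest. With erastin ITGB5 was 1.34-fold higher in oeWDR76 and 1.27-fold higher in siDCAF8+siLSH than in siNS (adjusted p = 1.47e-05 and 0.000186). The untreated difference in oeWDR76 was 0.14 (SE 0.06, adjusted p = 0.0639), not called. With ITGB1 and ITGB3 lower, ITGB5 made up 29.8% to 30.5% of summed beta FPKM in oeWDR76 against 17.4% to 18.6% in siNS.

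CDH2, the N-cadherin gene on chromosome 18 at 27950963 to 28177446, was the cadherin that rose in siDCAF8. Its untreated libraries read 21.9 and 21.4 FPKM in siNS, 35.8 and 34.2 in siDCAF8, 25.4 and 25.7 in siDCAF8+siLSH and 16.2 and 16.2 in oeWDR76. With erastin the readings were 22.7 and 22.2 FPKM in siNS/Erastin, 34.6 and 40.4 in siDCAF8/Erastin, 24.4 and 23.9 in siDCAF8+siLSH/Erastin and 17.8 and 17.7 in oeWDR76/Erastin. In both treatments siDCAF8 was highest and oeWDR76 lowest, without overlap with any other condition. CDH2 rose 1.59-fold (SE 0.06 log2, adjusted p = 1.78e-07) in siDCAF8 untreated and 1.63-fold (SE 0.06 log2, adjusted p = 7.04e-08) with erastin. In siDCAF8+siLSH it was lower than in siDCAF8 by 0.44 on the log2 scale (SE 0.06, adjusted p = 4.28e-05) untreated and by 0.61 on the log2 scale (SE 0.06, adjusted p = 1.17e-06) with erastin. There it was above siNS untreated (0.23, SE 0.06, adjusted p = 0.00418), and with erastin the difference was 0.10 (SE 0.06, adjusted p = 0.18). In oeWDR76 CDH2 fell 1.31-fold (adjusted p = 3.23e-05).

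CDH13, the T-cadherin gene on chromosome 16, was lower than siNS in every other condition and was called in no erastin comparison. It stood at 43.2 and 43.2 FPKM in siNS, 35.7 and 30.6 in siDCAF8, 26.5 and 26 in siDCAF8+siLSH and 23.3 and 22.4 in oeWDR76 untreated. In erastin it stood at 44.3 and 42.4 FPKM in siNS/Erastin, 30.7 and 30.6 in siDCAF8/Erastin, 25.6 and 26.9 in siDCAF8+siLSH/Erastin and 21.9 and 22.5 in oeWDR76/Erastin. The order was siNS, siDCAF8, siDCAF8+siLSH and oeWDR76 in both treatments, each without overlap with its neighbour. The falls from siNS were 1.3-fold, 1.62-fold and 1.86-fold untreated (adjusted p = 8.71e-05, 7.34e-08 and 2.07e-09). The erastin differences ran from -0.11 in siDCAF8 to 0.00 in siNS, and none was called (adjusted p 0.199 to 0.997). CDH2 FPKM divided by CDH13 FPKM was 0.495 to 0.506 in siNS and 1 to 1.12 in siDCAF8.

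CDH24, a classical cadherin on chromosome 14, was the member with the largest erastin fall in siDCAF8. It read 19.5 and 20.5 FPKM in siNS, 10.3 and 10.2 in siDCAF8, 9.1 and 7.12 in siDCAF8+siLSH and 16.6 and 17.2 in oeWDR76 without erastin. With erastin it read 18.6 and 15.8 FPKM in siNS/Erastin, 6.13 and 6.72 in siDCAF8/Erastin, 7.55 and 8 in siDCAF8+siLSH/Erastin and 18.3 and 17.7 in oeWDR76/Erastin. The siDCAF8 and siDCAF8+siLSH libraries lay below all siNS and oeWDR76 libraries. CDH24 was 1.87-fold lower in siDCAF8 than in siNS untreated and 2.45-fold lower with erastin (adjusted p = 3.38e-07 and 3.74e-09). In siDCAF8+siLSH it was 2.32-fold lower than in siNS untreated (adjusted p = 7.42e-09). In oeWDR76 the untreated difference was -0.23 (SE 0.09, adjusted p = 0.0321), a call lost without any 1 of the 4 libraries compared (adjusted p 0.0573 to 0.142). With erastin it was 0.07 (SE 0.09, adjusted p = 0.526).

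CDH12, a cadherin known from brain, was low. Its untreated values were 3.88 and 3.15 FPKM in siNS, 2.21 and 2.03 in siDCAF8, 3.65 and 3.46 in siDCAF8+siLSH and 2.17 and 2.56 in oeWDR76. Under erastin its values were 2.74 and 2.43 FPKM in siNS/Erastin, 1.46 and 1.95 in siDCAF8/Erastin, 3.09 and 2.86 in siDCAF8+siLSH/Erastin and 1.99 and 2.22 in oeWDR76/Erastin. The siNS and siDCAF8+siLSH pairs were the upper groups and overlapped untreated. CDH12 was lower in siDCAF8 than in siNS by 0.53 on the log2 scale (SE 0.11, adjusted p = 0.000396), and higher in siDCAF8+siLSH than in siDCAF8 by 0.55 on the log2 scale (SE 0.11, adjusted p = 0.000531). Erastin lowered it in siNS by 0.33 on the log2 scale (SE 0.11, adjusted p = 0.0224), which was not called without siNS replicate 1 (adjusted p = 0.22) or siNS/Erastin replicate 2 (0.141) and with quantile normalization (0.074).

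The 30 members below the filter comprised 8 alpha chains, 5 beta chains and 17 cadherins, none at 0 in every library. CDH1, the E-cadherin gene, stood at 0.18 to 0.51 FPKM. CDH3, ITGA4 and ITGA11 stayed at or below 0.02, 0.03 and 0.10 FPKM. Only 6 of the 30 reached 1 FPKM in any library, and since that picks members by the group where they are high, their levels are a description without a test. CDH11, the osteoblast cadherin, stood at 0.65 and 0.62 FPKM in siNS and 1.94 and 1.84 in oeWDR76. CDH18 stood at 0.07 and 0.05 FPKM in siNS and 0.88 and 1.04 in oeWDR76. CDH15, the muscle cadherin, stood at 0.46 and 0.58 FPKM in siNS and 1.14 and 1.25 in oeWDR76. Each of these 3 cadherins reached 1 FPKM in oeWDR76 libraries alone.

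CDH5, the cadherin of endothelium, was highest in siNS and lowest in oeWDR76. It stood at 0.85 and 1.05 FPKM in siNS, 0.45 and 0.49 in siNS/Erastin, 0.38 and 0.25 in siDCAF8, 0.06 and 0.08 in siDCAF8+siLSH and 0.01 and 0.04 in oeWDR76. Of 8 other endothelial markers 3 passed the filter (ROBO4, ESAM and PECAM1), while KDR reached at most 0.11 and CLDN5 at most 0.05 FPKM. The summed endothelial markers were 19.4 to 20.5 FPKM in siNS, 13.1 to 14.3 in siNS/Erastin, 15.6 to 17.8 in siDCAF8, 11.3 to 11.6 in siDCAF8+siLSH and 21.0 to 21.4 in oeWDR76, and their part in the CDH5 levels was not tested. CDH4, the retinal cadherin, was highest in siDCAF8+siLSH, at 1.5 and 1.41 FPKM against 0.58 and 0.66 in siNS.

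**Figure D5:**
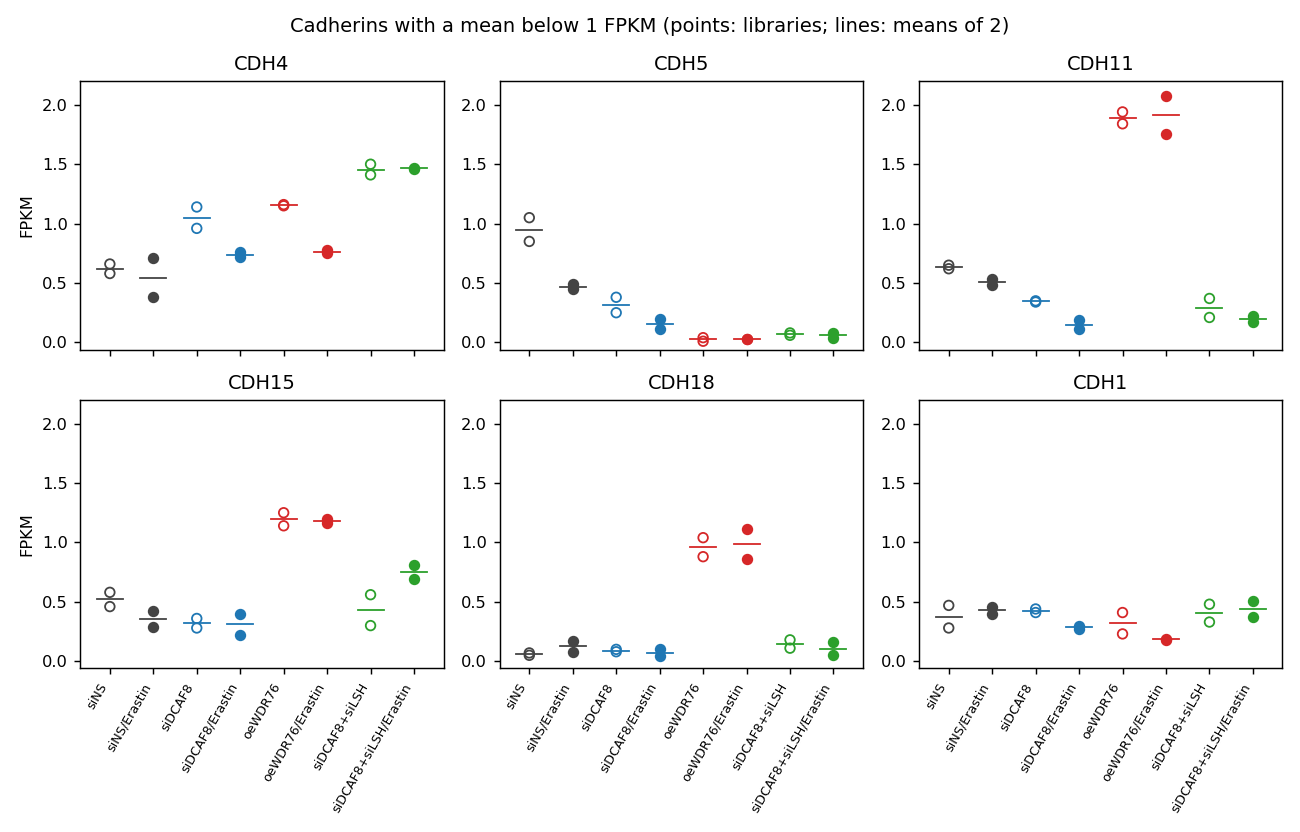
FPKM of 6 cadherins with a mean below 1 in each of the 8 groups; points are libraries, open when untreated and filled after erastin, and lines are means of 2. CDH11, CDH15 and CDH18 are highest in both oeWDR76 groups, CDH5 is highest in siNS, and CDH1 stays below 0.6.

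The ligands, adaptors and partners of these receptors were taken from lists written by hand, and are given by counts without a test of the list. Of 21 tested integrin ligands, 3 rose and 15 fell in untreated siDCAF8 against siNS, with a median of -0.47 log2, beside 31% and 29.9% of all genes and their median of 0.01. The largest changes were LAMA5 (a laminin chain) at -1.94 (SE 0.09, adjusted p = 6.33e-11), COL5A1 (a fibrillar collagen chain) at 1.20 (SE 0.07, adjusted p = 1.08e-09) and MFGE8 (an RGD ligand) at -1.04 (SE 0.07, adjusted p = 3.31e-09). In untreated oeWDR76 2 ligands rose and 16 fell, beside 41.6% and 32% of all genes, led by FN1, fibronectin, at -2.54 (SE 0.09, adjusted p = 2.84e-13), COL6A1 at -1.73 (SE 0.08, adjusted p = 7.5e-12) and LAMA5 at -1.27 (SE 0.09, adjusted p = 1.57e-09). Against siDCAF8, 10 rose and 8 fell in untreated siDCAF8+siLSH, beside 26.4% and 21.7% of all genes, with SPP1 (osteopontin) at 1.77 (SE 0.17, adjusted p = 8e-07), FN1 at 1.70 (SE 0.09, adjusted p = 3.26e-09) and FBN1 at 1.06 (SE 0.09, adjusted p = 1.47e-07). Erastin in siNS raised 0 and lowered 7 of the 21, beside 15.1% and 22.4% of all genes, among them LAMB1 at -0.81 (SE 0.08, adjusted p = 2.24e-06), FN1 at -0.52 (SE 0.09, adjusted p = 0.000276) and TNC, tenascin. By limma's unadjusted p below 0.05 the ligand counts were 0 and 8, beside 5254 of all 11260 genes in either direction.

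Among 33 tested integrin activators and adaptors, 10 rose and 15 fell in untreated siDCAF8, beside 31% and 29.9% of all genes, so the share that rose was near the background. FERMT1, a kindlin, rose by 1.21 on the log2 scale (SE 0.09, adjusted p = 6.16e-09), CD82, a tetraspanin, fell by 1.06 on the log2 scale (SE 0.06, adjusted p = 5.83e-10) and CAV1, caveolin, rose by 0.88 on the log2 scale (SE 0.06, adjusted p = 3.51e-09). In untreated oeWDR76 14 rose and 18 fell, beside 41.6% and 32% of all genes, led by the kindlin FERMT2 at -0.89 (SE 0.07, adjusted p = 3.49e-09), DAB2 at -0.87 (SE 0.07, adjusted p = 1.51e-08) and the tensin TNS2 at 0.84 (SE 0.07, adjusted p = 1.15e-08). In untreated siDCAF8+siLSH against siDCAF8 6 rose and 13 fell, beside 26.4% and 21.7%, among them VCL, vinculin, at -0.70 (SE 0.07, adjusted p = 1.09e-06), TLN2, a talin, at -0.70 (SE 0.08, adjusted p = 4.41e-06) and FLNA, filamin A, at -0.67 (SE 0.06, adjusted p = 6.18e-07). Of 10 tested catenins and cadherin partners, 3 rose and 4 fell in untreated siDCAF8, beside 31% and 29.9% of all genes, with NECTIN3 at -0.70 (SE 0.07, adjusted p = 1.97e-07), CTNNAL1 at 0.66 (SE 0.07, adjusted p = 9.68e-07) and NECTIN2 at -0.45 (SE 0.06, adjusted p = 3.04e-06). In untreated oeWDR76 0 rose and 6 fell by limma, beside 41.6% and 32% of all genes. The counts were the same at an unadjusted p below 0.05, beside 8501 of all 11260 genes in either direction. NECTIN3 stood at -0.93 (SE 0.07, adjusted p = 2.5e-09), AFDN at -0.53 (SE 0.07, adjusted p = 1.24e-06) and CTNND1, p120 catenin, at -0.53 (SE 0.05, adjusted p = 1.59e-07).

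Of 9 tested transcription factors of the epithelial-mesenchymal transition, some of which repress CDH1, 2 rose and 4 fell in untreated siDCAF8, and 4 rose and 5 fell in untreated oeWDR76. Of all genes 31% and 29.9% rose and fell in the former and 41.6% and 32% in the latter, so the share of these factors that rose in oeWDR76 was near the background. TCF3 rose by 1.21 on the log2 scale (SE 0.06, adjusted p = 2.87e-10) in siDCAF8 and by 1.59 on the log2 scale (SE 0.06, adjusted p = 1.81e-12) in oeWDR76. SNAI1 fell by 0.79 on the log2 scale (SE 0.17, adjusted p = 0.000851) and by 1.02 on the log2 scale (SE 0.17, adjusted p = 4.73e-05) in the same comparisons, and in oeWDR76 ZEB1 fell by 1.01 on the log2 scale (SE 0.08, adjusted p = 3.64e-09). TCF4 fell in siDCAF8 by 0.53 on the log2 scale (SE 0.09, adjusted p = 0.000117). Erastin raised SNAI2 in siNS by 0.71 on the log2 scale (SE 0.09, adjusted p = 1.35e-05) and in siDCAF8 by 1.12 on the log2 scale (SE 0.09, adjusted p = 1.62e-07). SNAI2 was also called higher with erastin in siDCAF8+siLSH, by 0.44, and in oeWDR76, by 0.42. Of the 9 factors, 3 rose and 0 fell with erastin in siNS, beside 15.1% and 22.4% of all genes. In siDCAF8 2 rose and 2 fell, beside 18.3% and 22.5%. In siDCAF8+siLSH 1 rose and 1 fell, beside 10.6% and 9.54%, and in oeWDR76 1 and 0, beside 0.471% and 0.977%. CDH2 was called in none of these erastin comparisons, and CDH1, below the filter, was not tested.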

How the data were processed

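Expression was given as FPKM per gene for 16 HT-1080 libraries in a table that the authors deposited. Per the labels' protocols, RNA was extracted with Trizol, made into cDNA and libraries with SMART-Seq and NEBNext kits, and sequenced on a BGISEQ500. Per the submitters' processing notes StringTie and GRCh38 were used, while the aligner, the annotation release, the strand setting and the StringTie version were "not given in the sources used here". No counts were used, so depth is unknown and no counting interval can be given.

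Of 24107 entries, 6555 had no values in these libraries. The 11260 genes whose mean reached 1 FPKM were fitted as log2(FPKM + 1) with limma 3.58.1 in R 4.3.3, with 8 group means and a trended prior, which left 8 residual and added 8.57 prior degrees of freedom. All 15 two-sided contrasts were adjusted by Benjamini-Hochberg over all genes of each. The fit was also run on simulated data with independent noise, which lack the GC trend of the oeWDR76 libraries, and no result here rests on that run. Sums and plots were made with Python 3.11.15. Sequences came from RefSeq tables of GRCh38.p14, with a promoter for 29 of the 49 members. All tested members are named. Genes of the ligand, adaptor, partner and transcription factor lists are named as up to 3 called genes with the largest difference in a comparison. The members and the lists were chosen with earlier results of these data known. The alternatives were another pseudocount, other filters, median-ratio scaling, quantile normalization, a GC and length correction, the replicate number as a block and omission of each library. A fit without the oeWDR76 groups was chosen after seeing the data.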

Additional observations from a re-analysis of the deposited data

Results flagged for a closer look

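The erastin response of 9 members differed between conditions by limma's test of the difference itself, with 11 such differences in all and 2 libraries per group. For siDCAF8 minus siNS 5.88% of members were higher and 5.88% lower, beside 11% and 9.84% of all genes. The shares for oeWDR76 minus siNS were 11.8% and 0%, beside 9.04% and 5.11%. For siDCAF8+siLSH minus siDCAF8 they were 23.5% and 17.6%, beside 14.2% and 9.24%. Between siDCAF8 and siNS the differing members were ITGB1, with a log2 difference of 0.27 (adjusted p = 0.0333), and CDH24, with -0.39 (0.0407). ITGB1 stood at -0.03 with erastin in siNS and 0.24 in siDCAF8, and CDH24 at -0.21 and -0.60. The ITGB1 call was lost without any 1 of 5 libraries and the CDH24 call without any 1 of 10. Both were also lost with no filter on low values.

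Between oeWDR76 and siNS they were ITGA10, by 0.81 (0.0111), and ITGB5, by 0.28 (0.0469). ITGA10 had the largest difference and was already low in untreated oeWDR76, at 10.6 and 9.69 FPKM. Its erastin fall in siNS was kept without each single library, as was this difference, which was not called once the low genes were tested too (adjusted p = 0.0595). ITGB5 stood at -0.14 in siNS and 0.15 in oeWDR76, and its call was lost without any 1 of 7 libraries and with median-ratio scaling.

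Between siDCAF8+siLSH and siDCAF8 the response was higher for ITGAL, by 0.60 (0.00594), ITGAX, by 0.58 (0.0101), CDH24, by 0.56 (0.00905), and ITGA3, by 0.38 (0.00814). It was lower for ITGB1, with a difference of -0.40 (0.00599), ITGAV, with -0.33 (0.0246), and ITGA6, with -0.29 (0.0191). CDH24 stood at -0.60 with erastin in siDCAF8 and -0.05 in siDCAF8+siLSH. With the correction for GC content and length limma called none of these 7 (adjusted p 0.0550 to 0.462). Among these 7, the call of ITGAX was lost without siDCAF8 replicate 1 (adjusted p = 0.0553), that of ITGA6 without that library, siDCAF8/Erastin replicate 2 or siDCAF8+siLSH/Erastin replicate 2 (0.0654 to 0.0797), and that of ITGAV without that library, siDCAF8/Erastin replicate 1, siDCAF8+siLSH replicate 2 or siDCAF8+siLSH/Erastin replicate 1 (0.0771 to 0.0951).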

How the results depend on the processing

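The 17 tested members had 138 calls over the 15 comparisons, and none of these changed direction under any alternative. Of the 138, 20 were lost with no filter on low values, 17 with the correction for GC content and length, 8 with quantile normalization, 7 with median-ratio scaling and 1 with a pseudocount of 0.1. The stricter filter of 5 FPKM lost 0 of the 112 calls it could test by limma, and the fit without the oeWDR76 groups, chosen after seeing the data, lost 6 of 110. In all, 31 were lost under at least 1 of these settings, 42 without at least 1 library and 47 under either.

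Under these settings counts of called members moved by more than 1.5 times in 7 of the 15 comparisons. With no filter, which also tests the 30 members below it, oeWDR76 against siNS had 21 called members untreated in place of 13. With erastin it had 24 in place of 13, and siDCAF8+siLSH against siNS with erastin had 20 in place of 13. Of all 17552 genes then tested, 5327 were higher and 4007 lower in untreated oeWDR76. With erastin 5770 and 3798 were higher and lower in oeWDR76, and 4710 and 3203 in siDCAF8+siLSH. In the response differences, siDCAF8 minus siNS had 2 called members, 0 with no filter, 1 with the GC and length correction and 0 in the fit without the oeWDR76 groups. OeWDR76 minus siNS had 2, and 1 each with no filter, median-ratio scaling and quantile normalization. SiDCAF8+siLSH minus siDCAF8 had 7, and 0 with the GC and length correction. That correction gave 1 called member for erastin in oeWDR76 in place of 0. The cause of these shifts was not tested.

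With each library left out in turn, the erastin comparisons had 4 to 8 called members in siNS, 2 to 9 in siDCAF8, 0 to 0 in oeWDR76 and 4 to 10 in siDCAF8+siLSH. Against siNS there were 11 to 14 untreated and 13 to 15 with erastin in siDCAF8, 12 to 13 and 12 to 13 in oeWDR76, and 11 to 13 and 12 to 13 in siDCAF8+siLSH. SiDCAF8+siLSH against siDCAF8 had 9 to 11 and 8 to 14. The response differences had 0 to 3 for siDCAF8 minus siNS, 1 to 2 for oeWDR76 minus siNS and 4 to 9 for siDCAF8+siLSH minus siDCAF8. With 1 library left in an arm, that library is assumed to vary like the other groups.

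With the replicate number as a block, 14 members in place of 13 were called in untreated oeWDR76 against siNS, and the block lost none of the 138 calls. Libraries of the same number in different groups deviated together with correlations of -0.21 to 0.39, and the labels do not say that a number marks a shared culture or day. Because FPKM values were rounded to 2 decimals and counts were not used, changes among members below 1 FPKM are the least precise.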

Other observations

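Ratios between subunits are given as values that no comparison tests. ITGB1 FPKM was divided by the summed FPKM of ITGA1, ITGA2, ITGA3, ITGA5, ITGA6, ITGA10 and ITGAV, of which ITGAV also pairs with other beta chains. The ratio was 0.397 to 0.429 in siNS and 0.420 to 0.427 in oeWDR76, where both sides of the ratio were lower. It was 0.551 to 0.655 in siDCAF8 and 0.777 to 0.942 in siDCAF8+siLSH, where the sum of the alpha chains was lower and ITGB1 was not called. ITGA6, one of these alpha chains, was higher in siDCAF8. With erastin the ratio was 0.451 to 0.498 in siNS, 0.764 to 0.773 in siDCAF8, 0.443 to 0.465 in oeWDR76 and 0.717 to 0.719 in siDCAF8+siLSH. RNA ratios do not give the amounts of receptor pairs at the surface.

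Laminin-binding chains held 60.5% to 60.8% of alpha FPKM in siDCAF8, 61.5% to 62.2% in oeWDR76, 53.6% to 55.4% in siNS and 52.7% to 53.1% in siDCAF8+siLSH. The RGD-binding share was 18.3% to 18.4% in siNS and above it in every other group, up to 28.5% to 28.8% in oeWDR76 with erastin. The summed cadherin FPKM ranged from 92.2 to 92.5 in siNS and from 64.8 to 65.3 in oeWDR76.

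Among integrins below the filter, ITGA2B, the platelet fibrinogen receptor chain, stood at 1.09 and 0.93 FPKM in siNS and 0.29 and 0.19 in oeWDR76. ITGB2 stood at 0.28 and 0.39 in siNS and 0.76 and 0.74 in siDCAF8, and at 0.2 and 0.29 in siDCAF8+siLSH.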
